A study of Homo sapiens with 3 samples.

Results

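The 8 genes examined here encode the subunits of the CCT chaperonin: TCP1, CCT2, CCT3, CCT4, CCT5, CCT6A, CCT7 and CCT8. They were followed in human embryonic kidney cells that expressed RBFOX2, a splicing regulator that binds RNA, fused to the cytidine deaminase APOBEC1. In this assay, STAMP, the deaminase turns C into U on RNAs near which the fusion protein comes to lie, and FLARE collects the edited positions into clusters along a gene. Every cluster whose label named 1 of the 8 symbols exactly was kept, in all 3 replicates, which gave 86 clusters of 40843 in all. The cells were HEK293XT, a lenti-X derivative of HEK293T with genotype WT in the labels. The labels give them as transiently transfected with a doxycycline-induced fusion construct and collected at 72 h, although their growth protocol describes stable lines. The 3 samples are replicates of this single group, and no cells without the fusion were analysed here. Edits that depend on RBFOX2 therefore cannot be told apart from edits that the deaminase would make without it. The files list edited clusters and not expression, so the cell type was not checked against markers.

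CCT, also called TRiC, is the chaperonin of the eukaryotic cytosol. Each of its stacked rings holds all 8 paralogous subunits once, and newly made actin and tubulin fold inside the cavity while the subunits bind and hydrolyse ATP. TCP1, CCT2, CCT4 and CCT5 form the side of the ring with high affinity for ATP, and CCT3, CCT6A, CCT7 and CCT8 the side with low affinity. Prefoldin hands clients over to the ring, and phosducin-like proteins act on it as co-chaperones. Dividing cells express all 8 genes.

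Edited clusters were found in each of the 8 genes, mostly in exons, and they were unevenly spread over the genes. The count was 27 clusters in replicate 1, 41 in replicate 2 and 18 in replicate 3, which is 28.7 ± 11.6 (SD, n = 3 replicates). These were 0.189%, 0.270% and 0.158% of all clusters of the 3 replicates in the same order, so that replicate 2 also held the largest share. CCT clusters took a larger share of the covered C bases of the series, at 0.335%, 0.572% and 0.363%, than of its edited bases, at 0.232%, 0.384% and 0.280%. A covered C base is a C of the cluster counted once for each read over it. Across the whole series the replicates held 14295, 15181 and 11367 clusters with 1637592, 1731304 and 1104249 reads in them. Since windows that did not pass the authors' threshold are absent from these lists, the number of clusters in a gene is a count of passing regions and not a level of its RNA.

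CCT8, a subunit of the low affinity side, held the most clusters, with 5, 10 and 5 in replicates 1, 2 and 3. CCT2 held 4, 8 and 5, TCP1 held 5, 8 and 3, and CCT4 held 4, 7 and 3, all of them subunits of the high affinity side. In each of these 4 genes replicate 2 was the highest. CCT6A followed with 4, 4 and 1 clusters. The remaining genes had none in at least 1 replicate. CCT5 had 5 clusters in replicate 1, 1 in replicate 2 and none in replicate 3, while CCT3 had 1 in each of replicates 2 and 3. CCT7 had 2, both in replicate 2. Counted by side of the ring, the high affinity subunits held 18, 24 and 11 clusters and the low affinity subunits 9, 17 and 7.

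**Figure D1:**
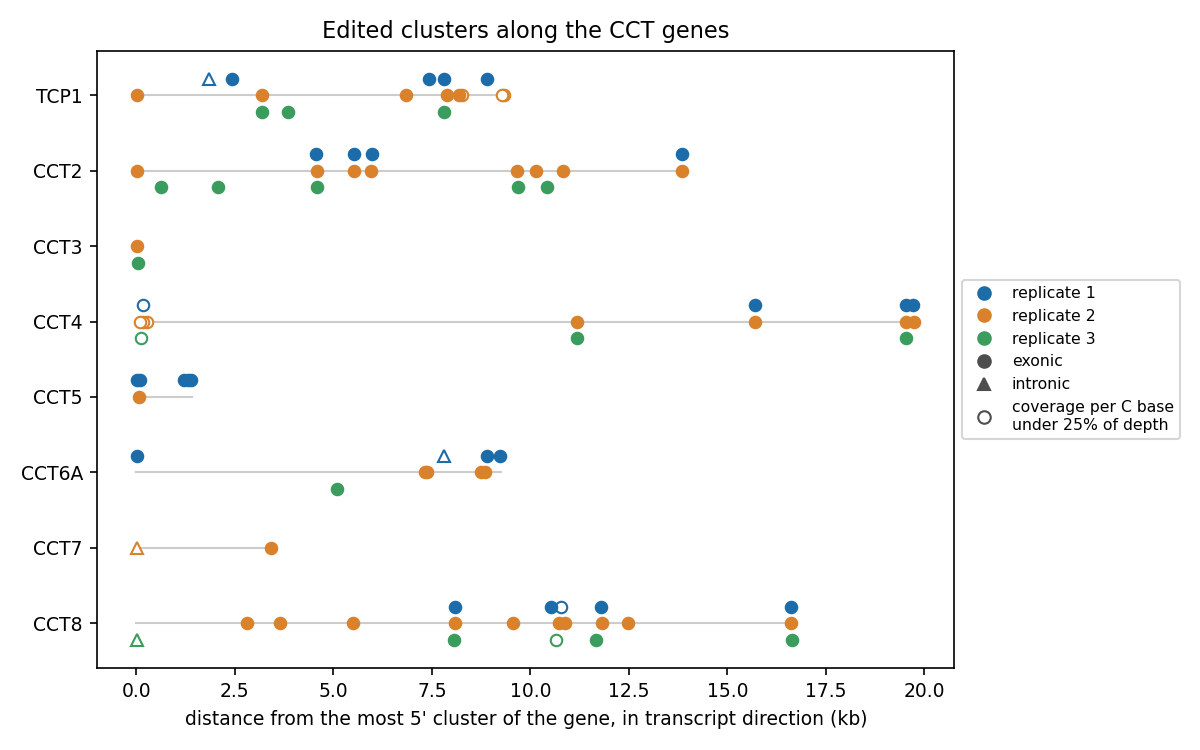
Position of the 86 CCT clusters along their genes. The x axis is the distance in kb from the most 5′ cluster of each gene, in the direction of the transcript, each symbol is 1 cluster, the colour gives the replicate, triangles are intronic clusters, and open symbols are clusters whose coverage per C base is under 25% of their read depth. Clusters lie along the whole stretch in CCT2, CCT8 and TCP1, while those of CCT5 and CCT3 lie in a single exon segment.

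In the files' hg19 coordinates the clusters of CCT2 reached from chr12:69981346-69995210 on the plus strand and those of CCT4 over chr2:62095600-62115368 on the minus strand. Those of CCT8 spanned chr21:30428691-30445397 and those of TCP1 chr6:160199561-160208910, both on the minus strand. The labels number the exonic and intronic segments of a gene from 0 by rising coordinate, so that segment 0 is the 3′ end of a gene on the minus strand. On this numbering the 17 CCT2 clusters fell in 11 exonic segments, whereas all 6 CCT5 clusters fell in a single one, exon segment 20. TCP1 and CCT8 clusters fell in 9 exonic segments each, those of CCT4 and CCT6A in 4 each. Both CCT3 clusters lay in exon segment 0 at chr1:156278805-156278849. Of the 86 clusters, 31 were 30 bases long, the size of a single FLARE window, 21 were 45 bases long and the longest, in CCT4, was 225 bases.

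Editing within the clusters was sparse in all 8 genes. The pooled edit fraction, the edited bases over the covered C bases summed over the clusters of a gene, was 0.650% for the 8 genes together in replicate 1, 0.627% in replicate 2 and 0.768% in replicate 3. Its mean was 0.682% ± 0.0757 (SD, n = 3), below the 0.957% ± 0.0348 over all clusters of the series. The highest CCT replicate lay under the lowest value of the whole series, 0.934%. This was not so at matched depth. With clusters of at least 50 reads the CCT value was 0.636%, 0.621% and 0.768% and that of all clusters 0.6996%, 0.6987% and 0.7105%, so that replicate 3 turned the other way, and at a depth of 100 to 500 the means were 0.691% ± 0.105 and 0.695% ± 0.0150 (SD, n = 3). Both values come from the same 3 replicates, and the 8 genes are part of the total. With so few replicates, no test was made of this difference.

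Among the 5 genes with clusters in every replicate, CCT8 had the largest mean pooled edit fraction, 0.758% ± 0.183 (SD, n = 3), with 0.686%, 0.622% and 0.965% in replicates 1, 2 and 3. CCT4 came next, at 0.454%, 0.658% and 1.01%, which is the widest range of the 5. CCT2 had 0.662%, 0.584% and 0.762%. These values overlap from gene to gene, and replicate 3 was the highest in all 3 genes. CCT6A had 0.778%, 0.722% and 0.478%, and TCP1 had 0.804%, 0.603% and 0.492%, with replicate 3 the lowest in both. No 2 neighbours in this order differed beyond the spread of their replicates, and the order itself depended on the setting: CCT4 (0.834%) was above CCT8 (0.794%) without replicate 1, CCT6A (0.750%) was above CCT8 (0.654%) without replicate 3, and CCT4 (0.707%) was above CCT8 (0.702%) with labels that name 1 gene only. Without clusters whose covered C bases per C position were under 25% of their mean depth, CCT2 (0.669%) was above CCT8 (0.667%). CCT4 (0.479%) was then the lowest of the 5 genes. Of the other genes, CCT3 had 0.510% and 0.438% in replicates 2 and 3, and CCT5 had 0.584% and 0.803% in replicates 1 and 2. CCT7 stood at 3.29% in its single replicate, over 8 edited bases only. The sides of the ring did not separate, at 0.662% ± 0.0727 for the high affinity subunits and 0.717% ± 0.0856 for the low affinity subunits (SD, n = 3).

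**Figure D2:**
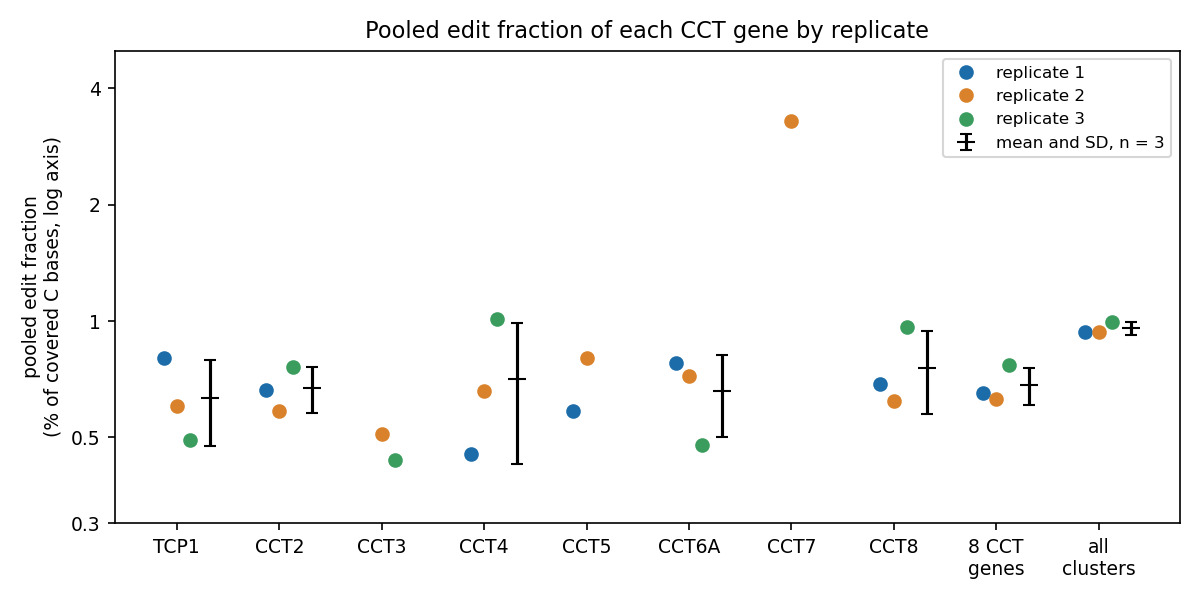
Pooled edit fraction of each CCT gene, of the 8 genes together and of all clusters. The y axis is the percent of covered C bases that are edited, on a log axis, points are replicates, and the bar is the mean with SD where all 3 replicates have a cluster. CCT7 stands apart at 3.29% in replicate 2, and the other genes lie between 0.438% and 1.01% with overlapping replicates.

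The CCT clusters were far more deeply covered than most clusters, and their low edit fraction went with that depth. Their median read depth was 201, 260 and 214 reads in replicates 1, 2 and 3, against 25.1, 24.7 and 21.1 for all clusters. In bulk RNA a high depth does not tell more RNA per cell from more cells, and depth was not scaled to the libraries. In all, 82 of the 86 CCT clusters (95.3%) had a mean depth of at least 50, compared with 27.4% of all clusters. The median edit fraction of CCT clusters was 0.692%, 0.733% and 0.538%, and that of all clusters 1.64%, 1.65% and 1.80%, a mean difference of -1.04 percentage points ± 0.192 (SD, n = 3). With clusters of at least 50 reads on both sides the difference was -0.14 percentage points ± 0.0946. At a depth of 100 to 500 it was -0.0376 percentage points ± 0.0671, smaller than the spread between replicates, and in replicate 1 the CCT median (0.652%) was above that of all clusters (0.632%). The part of the filter in the relation of edit fraction to depth was not tested.

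Edited reads of CCT genes carried somewhat more edits each, but not in every replicate once clusters with few covered C bases were left out. There were 1.75, 1.87 and 1.91 edited bases per edited read in CCT clusters of replicates 1, 2 and 3, and 1.59, 1.67 and 1.66 in all clusters. At a depth of 100 to 500 the values were 1.87, 1.84 and 2.01 for CCT and 1.59, 1.63 and 1.58 for all clusters. The CCT value was the higher in 3 of 3 replicates in both cases. Without clusters whose covered C bases per C position were under 25% of their mean depth, called low in C coverage, CCT had 1.73, 1.92 and 1.66 and all clusters so restricted 1.59, 1.67 and 1.66, so the ranges overlapped and the CCT value was the higher in 2 of 3 replicates. The most edits per edited read were in CCT2 exon segment 10, with 24 edits in 5 edited reads of replicate 3, and in the 225-base CCT4 cluster, with 40 edits in 9 edited reads. Of the 86 CCT clusters, 4 rested on a single edited read (2, 2 and 0 in replicates 1, 2 and 3), compared with 28.0%, 31.1% and 33.0% of all clusters. At a depth of 100 to 500 the share was 4.76%, 2.86% and 0% for CCT and 4.66%, 5.16% and 4.45% for all clusters, so most of the gap was absent at matched depth.

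The score that FLARE assigns, a cumulative probability from a negative binomial model, was at least 0.99 in 66.7%, 63.4% and 61.1% of CCT clusters of the 3 replicates. Over all clusters of the series the share was 60.6%, so the CCT clusters were close to the background here.

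Clusters of different replicates were joined into a locus where they shared at least 1 base on the same strand and named the same gene. The 86 clusters made 62 loci, of which 5 (8.06%, Wilson 95% interval 3.49% to 17.5%) were found in all 3 replicates and 18 (29.0%, 19.2% to 41.3%) in at least 2. Over all genes 4.77% of 33244 loci were found in all 3 replicates and 16.6% in at least 2. Counted by cluster, 5 of 27, 6 of 41 and 5 of 18 CCT clusters in replicates 1, 2 and 3 belonged to loci of all 3 replicates, against backgrounds of 12.1%, 11.4% and 15.1%. The interval of the first share covers the value over all genes, and that of the second lies above it. These intervals treat the loci as independent, although they lie in only 8 genes and in the same 3 replicates. They may thus be too narrow. Recovery rose with depth, however. Among loci with a cluster of at least 50 reads, 5 of 58 CCT loci (8.62%, 3.74% to 18.6%) were found in all 3 replicates and 18 of 58 (31.0%, 20.6% to 43.8%) in at least 2, compared with 14.5% and 35.0% of 7911 such loci over all genes. At this depth the CCT share was thus below that of all genes, and both intervals cover the values over all genes. Of the 13 loci found in exactly 2 replicates, 8 joined replicates 1 and 2, 4 joined replicates 2 and 3, and 1 joined replicates 1 and 3. Of the 44 loci found once, 23 came from replicate 2. Clusters that touched without sharing a base counted as separate loci. In TCP1 exon segment 4 a replicate 2 cluster ended at chr6:160201062. It lay next to a replicate 1 cluster that began at chr6:160201063 and overlapped 1 of replicate 3. CCT5 exon segment 20 was split in the same way after chr5:10264993. Shares with touching clusters joined were not computed.

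With at least 1 shared base required, the 5 loci of all 3 replicates lay in 3 genes, CCT2, CCT4 and CCT8, and all were exonic. The most heavily edited by reads was CCT8 exon segment 2, near the 3′ end of the gene, at chr21:30428691-30428825. It held 18, 17 and 19 edited reads among 719, 622 and 564 reads in replicates 1, 2 and 3, and edit fractions of 0.599%, 1.38% and 1.06%. Its 54 edited reads were the most of any of the 18 CCT loci found in more than 1 replicate. The second CCT8 locus, exon segment 16 at chr21:30437290-30437349, held 7, 8 and 8 edited reads, with edit fractions of 0.577%, 0.534% and 0.466%. These replicates lay close together.

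CCT4 had the deepest of the 5 and the one with the largest mean edit fraction. Exon segment 0, the 3′ end of the transcript, held a locus at chr2:62095810-62095841 with a depth of 619, 536 and 507 reads and edit fractions of 0.374%, 0.490% and 0.356%. Its 29 edited reads were spread as 11, 8 and 10 over the replicates. Towards the 5′ end, exon segment 27 held a locus at chr2:62115144-62115368 with edit fractions of 1.09%, 1.35% and 1.96%, a mean of 1.47% ± 0.448 (SD, n = 3). Replicate 2 had 2 clusters within it and replicate 3 a single long one. Only 37.3 to 52.6 reads covered a C base there on average although the mean depth was 160 to 229 reads, a gap seen in all 3 replicates. The sources used here do not state how the covered C bases and the mean depth were each counted, so what such a gap means is not known. CCT2 exon segment 14 at chr12:69985855-69985959 had edit fractions of 0.869%, 1.12% and 2.26%, over 5, 7 and 3 edited reads. Its mean of 1.41% ± 0.742 (SD, n = 3) did not differ from that of CCT4 exon segment 27 beyond the spread of the replicates. Replicate 3 was the highest and the least covered, with 35.4 reads per C base against 150 and 101.

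**Figure D3:**
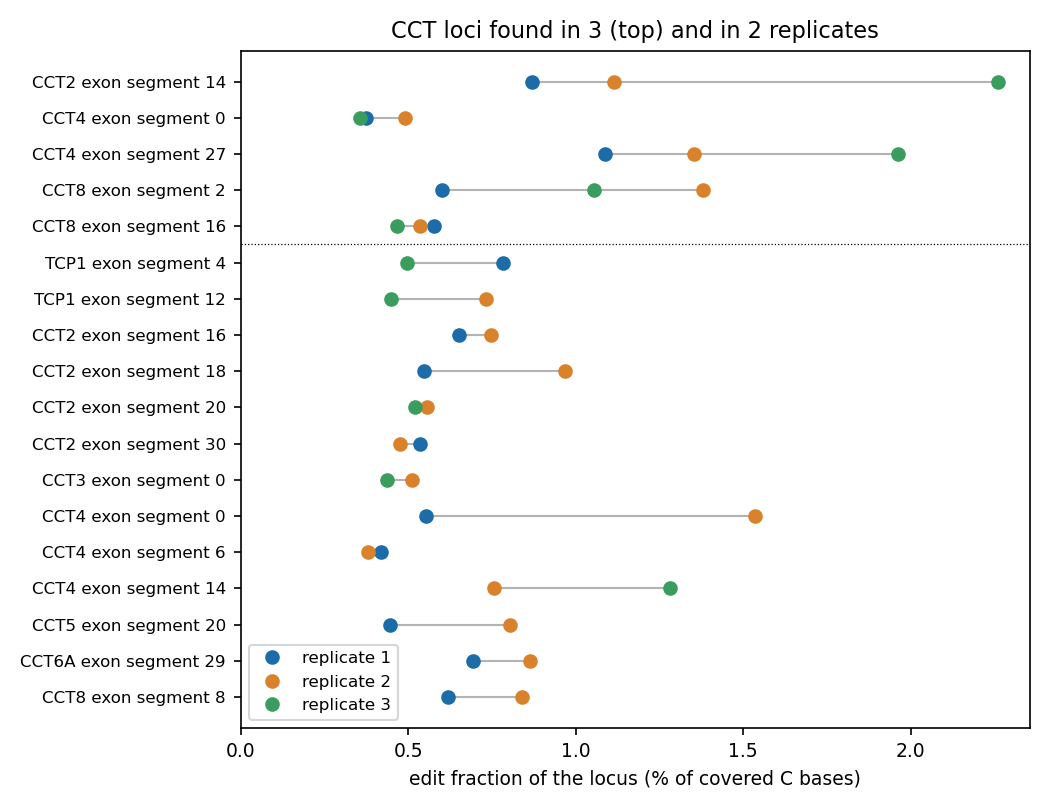
Edit fraction of the CCT loci found in 3 replicates (above the dotted line) and in 2 replicates (below it). The x axis is the percent of covered C bases that are edited, and each point is a replicate, joined by a line within a locus; the 2 loci named CCT4 exon segment 0 lie at different places of that segment. Above the line, CCT8 exon segment 16 and CCT4 exon segment 0 have the closest replicates and CCT2 exon segment 14 the widest spread.

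The replicates were compared at the 4 of these loci that had exactly 1 cluster in each. The share of edited reads at CCT2 exon segment 14 was 1.32%, 3.47% and 2.61% in replicates 1, 2 and 3, and the exact conditional test gave a p of 0.214. It was 1.49%, 1.23% and 1.64% at CCT4 exon segment 0 (exact p = 0.843), 2.50%, 2.73% and 3.37% at CCT8 exon segment 2 (exact p = 0.664) and 1.59%, 1.74% and 2.63% at CCT8 exon segment 16 (exact p = 0.597). The two-sided exact test thus called 0 of the 4 after Benjamini-Hochberg adjustment over 1297 loci, and 0 also had an unadjusted p under 0.05. Over all loci it called 6 (0.463%), and 88 had an unadjusted p under 0.05. With so few edited reads a locus can differ between replicates without being called, and the test covers counting error only. Cluster borders also differed between replicates at each of the 4, with 105, 60 and 45 bases at CCT2 exon segment 14. The shares therefore do not cover the same span. These loci also had to pass the authors' filter in every replicate, so the lack of a call does not show that the replicates agree.

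Most CCT loci with many edited reads in a replicate were not found in all 3 replicates. Of the 8 CCT loci that held a cluster with at least 11 edited reads, 2 were found in all 3 replicates, 2 in 2 and 4 in 1. Over all genes, 649 of 926 such loci (70.1%) were found in all 3. This limit was chosen after the values were seen, and no test was made. In the neighbouring classes the CCT clusters were closer to the background, with 9 of 30 (30%) of those with 5 to 10 edited reads found in all 3 replicates against 37.8% of all clusters, and 3 of 42 (7.14%) of those with 2 to 4 against 8.50%. The 4 found once were all of replicate 2: CCT8 exon segment 12 with 18 edited reads, CCT8 exon segment 24 with 13, CCT2 exon segment 22 with 12 and TCP1 exon segment 8 with 11. Their read depths of 438, 318, 252 and 311 were high, and their edit fractions of 0.559%, 0.469%, 0.582% and 0.598% were ordinary for CCT clusters. The CCT8 exon segment 12 cluster, at chr21:30434480-30434569, touched a replicate 1 cluster at chr21:30434570-30434644 without sharing a base. They were therefore counted as separate loci. The TCP1 exon segment 4 locus, counted in 2 replicates, touched a cluster of replicate 2 in the same way. Counts with touching clusters joined were not computed. At a depth of 100 to 500 the CCT count found in all 3 replicates was 1 of 7 and that over all genes 387 of 542. Replicate 2 also had the most CCT clusters, and its part in this difference was not tested.

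The highest edit fractions of the CCT genes stood on very few covered C bases. All 8 CCT clusters above 3% had a coverage per C base (covered C bases divided by the number of C positions) of 3.25 to 10.5 reads, and 1 to 4 edited reads. In 6 of them the deposited mean read depth of the same cluster was far higher, at 84.3 to 451 reads, and how the authors counted each of these quantities is not stated. The other 2 were CCT5 clusters of replicate 1 with a depth of 4.42 and 5.89 reads. A cluster is called low in C coverage here where coverage per C base is under 25% of the mean depth, a limit set after the values were seen. Of the 82 CCT clusters with a depth of at least 50, 14 (17.1%) were low in C coverage, 4, 7 and 3 by replicate, compared with 6.57% of all clusters of that depth. Their median edit fraction was 2.03% (range 0.728% to 30%), and that of the other 68 was 0.573% (range 0.316% to 2.26%). Of the 14, 5 were in CCT4, 4 in TCP1, 3 in CCT8 and 1 each in CCT6A and CCT7. Those of CCT4 all lay in exon segment 27, where 1 locus held 4 of them over the 3 replicates. The shares of 17.1% and 6.57% were not matched for depth beyond the limit of 50 reads. Without the 14 clusters the pooled edit fraction of the 8 genes was 0.615%, 0.608% and 0.622%, with a mean of 0.615% ± 0.00708 (SD, n = 3). That of CCT4 was 0.422%, 0.574% and 0.441% in replicates 1, 2 and 3, with replicate 3 no longer the highest. Over all clusters the same limit gave 0.949% ± 0.0342 (SD, n = 3). Covered C bases are also the denominator of the edit fraction. The higher fractions below the limit, and the closer replicates without those clusters, are therefore not independent of how the limit is defined.

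**Figure D4:**
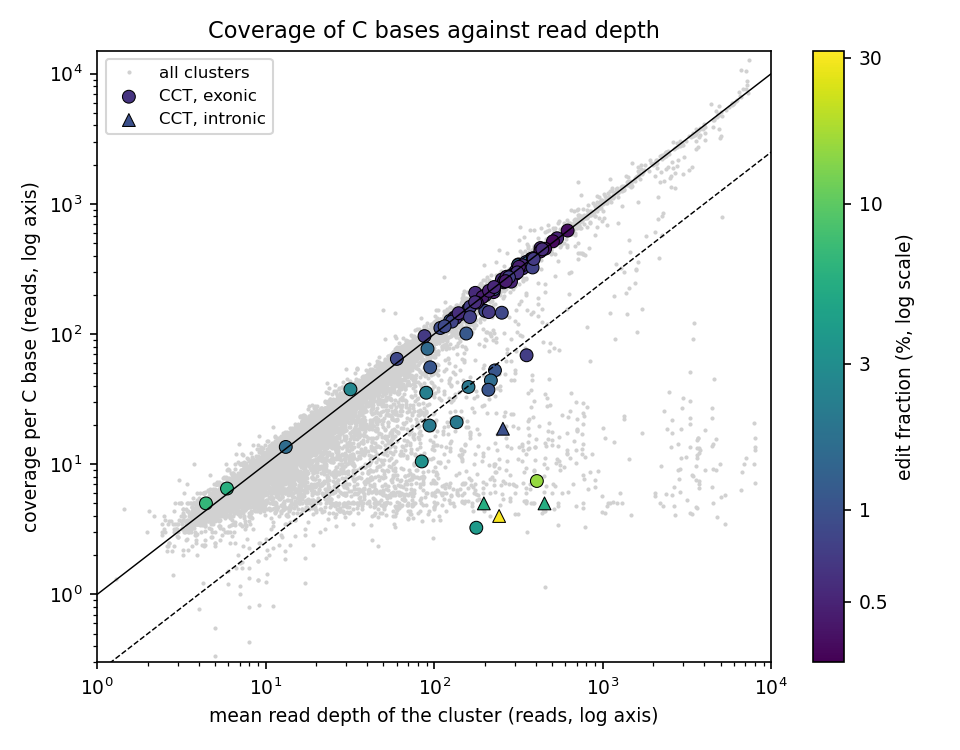
Coverage per C base against the mean read depth of each cluster, both in reads on log axes. Grey points are all clusters of the 3 replicates, coloured symbols are CCT clusters with the colour giving the edit fraction, the solid line marks equal values and the dashed line 25%. Most CCT clusters lie near the solid line with low edit fractions, and the 14 below the dashed line include the highest values.

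All 4 intronic CCT clusters were among those low in C coverage, and each was found in 1 replicate. They were 4 of 86 clusters, compared with 2.15% of all clusters with an intron in their label. The largest edit fraction of the 8 genes, 30%, was in CCT8 intron segment 27 of replicate 3 at chr21:30445353-30445397, near the 5′ end. It came from 12 edits in 4 edited reads over 40 covered C bases, at 4 reads per C base and a mean depth of 243, and its label also names AF129075.5. CCT7 intron segment 23 of replicate 2 at chr2:73476713-73476757 had 5.45%, with 3 edits over 55 covered C bases at a depth of 451. TCP1 intron segment 17 of replicate 1 at chr6:160207053-160207097 also had 5.45%, with its 3 edits in a single read. CCT6A intron segment 26 of replicate 1 at chr7:56129948-56129992 had 0.971%, at 18.7 reads per C base. The labels of the last 2 also name small nucleolar RNAs, SNORA20 and SNORA29 for TCP1 and SNORA15 and SNORA22 for CCT6A. These belong to the class of guide RNAs for pseudouridine and are made from introns of their host genes. In exons, the highest value was 15.4% in CCT8 exon segment 12 of replicate 1, with 8 edits in 2 reads and 7.43 reads per C base at a depth of 407.

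In total 7 of the 86 clusters name more than 1 gene, among them the 3 clusters of TCP1 exon segment 4, which share it with SNORA20. Leaving these out gave a pooled edit fraction of 0.666% for the 8 genes, against 0.682% with them. CCT6A has pseudogenes in the genome, so that reads may be split among the copies and its values are uncertain. How alike the copies are and how reads were assigned to them was not tested. Copies of the other CCT genes were not looked at. Of the CCT6 pseudogenes, CCT6P3 had 5 clusters and CCT6P1 had 1, all in replicate 2. Their pooled edit fractions were 5.22% and 6.67%, against 0.722% for CCT6A in replicate 2. The read depth of these clusters was not compared. Over all clusters the median edit fraction was 5% at a depth under 10 reads and 0.784% at 50 or more.

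Of the genes that work with the ring, 5 of 6 prefoldin subunits held a cluster, with 42 clusters in 25 loci, of which 5 were found in all 3 replicates. PFDN1 had 7, 6 and 4 clusters and VBP1, another prefoldin subunit, 9, 3 and 6. The pooled edit fraction of prefoldin was 0.778% ± 0.0623 (SD, n = 3), with 0.711%, 0.835% and 0.787% in replicates 1, 2 and 3. The 8 CCT genes together had 0.650%, 0.627% and 0.768%, lower in each replicate. Prefoldin clusters had median read depths of 105, 78.9 and 62.7 reads, against 201, 260 and 214 for CCT. The values were not matched for depth. Of the phosducin-like co-chaperones 3 of 4 held a cluster, and none of their 10 loci was found in all 3 replicates. Of 18 genes whose products are known clients of the ring, among them actins, tubulins and the von Hippel-Lindau protein VHL, 16 held a cluster, and 9 of their 54 loci were found in all 3 replicates. ACTB, the cytoplasmic beta-actin, had 4, 5 and 4 clusters. Among the chaperonin-like genes 2 of 5 held a cluster, MKKS and BBS10, which take part in assembly of the BBSome. The 2 genes of the mitochondrial chaperonin, HSPD1 and HSPE1, held 11 clusters in 9 loci, 1 of them in all 3 replicates. The share of loci found in all 3 replicates was 20% for prefoldin, 16.7% for the clients and 11.1% for the mitochondrial chaperonin. Over all genes it was 4.77%, and 14.5% of loci with a cluster of at least 50 reads. The share of all genes that held a cluster was not computed.

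Of 2 other sets of abundant multi-gene protein machines, the proteasome and the HSP70 and HSP90 chaperones, the latter lay closer to the CCT genes in pooled edit fraction. Proteasome subunits had 0.741%, 0.891% and 0.822% in replicates 1, 2 and 3, and the HSP70 and HSP90 genes 0.620%, 0.649% and 0.738%. All 8 CCT genes held a cluster, compared with 24 of 31 proteasome genes and 9 of 11 HSP70 and HSP90 genes. Their median read depths were lower than that of the CCT clusters, at 82.5 to 95.3 and at 97.8 to 151 reads over the replicates. Of the proteasome loci, 4 of 133 were found in all 3 replicates, and of the HSP70 and HSP90 loci 7 of 54.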

How the data were processed

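RNA from 3 replicates of HEK293XT cells with the RBFOX2-APOBEC1 fusion was sequenced by the authors, who called C-to-U sites with SAILOR (common SNPs removed) and then applied FLARE to each replicate separately. FLARE tiles genes in windows of 30 bases, tests the edits of each with a zero-truncated Poisson model by region and depth class at an adjusted p-value of 0.1, and merges windows within 15 bases. The submitters' processing notes name STAR and hg19, with versions not given in the sources used here, and the labels name a stranded mRNA or total RNA kit without saying which.

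The counts deposited per cluster (of C positions, covered and edited C bases, reads and edited reads) are whole and unscaled. The fractions deposited by the authors, of edited bases and of edited reads, were recomputed from these counts in 40843 of 40843 clusters (tolerance 1e-09). The deposited mean read depth is an unscaled coverage signal whose counting, like that of covered C bases, is not described in the sources used here, and the deposited score is a probability between 0 and 1. Only windows past the threshold are listed, so the reads in clusters are not the depth of the libraries, which limits the precision of edit fractions that rest on few reads. Reads are not independent molecules, so intervals and tests cover counting error only, and the study calls the replicates biological without saying in the labels whether they are separate cultures.

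Tables were handled in pandas 2.3.3 under Python 3.11.15, statistics computed with SciPy 1.17.1 and NumPy 2.4.6, and figures drawn with matplotlib 3.10.9. Starts are given counted from 1. Shares have Wilson 95% intervals. At loci with exactly 1 cluster in each replicate, edited against unedited reads were compared over the replicates with an exact conditional test (chi-square above 200 edited reads), with Benjamini-Hochberg adjustment over all loci at a threshold of 0.05. The code was tested on simulated data. All 8 genes are named, with every locus found in all 3 replicates and every intronic cluster; clusters singled out beyond these were chosen after their values were seen. The members and gene lists were chosen with earlier results of these data known. Alternatives were minimum scores, a depth of at least 50, at least 2 edited reads, an overlap of at least 50%, means for medians, the weighting by depth class, other forms of the test and leaving out each replicate. Labels with 1 gene only, the limits on C coverage and the depth range of 100 to 500, and pooled values at matched depth were added after the values were seen. No sequence is shown, because the genome of this build was not used here.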

Additional observations from a re-analysis of the deposited data

How the results depend on the processing

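With a minimum score of 0.99 the CCT clusters per replicate fell from a mean of 28.7 to 18.3, their pooled edit fraction was 0.793% in place of 0.682%, and the median difference from all clusters was -1.40 percentage points in place of -1.04. That difference was -0.82 with means, -0.14 at a depth of at least 50, -0.10 ± 0.124 (SD, n = 3) within depth classes, -0.0376 ± 0.0671 at a depth of 100 to 500 and -0.0517 at a coverage per C base of 100 to 500, the last 2 chosen after seeing the data. Its mean kept its sign in all of these, but within depth classes and at a depth of 100 to 500 it was smaller than its spread, and in replicate 1 the sign was turned at that depth. The difference in pooled edit fraction from all clusters, -0.275 percentage points ± 0.0412 (SD, n = 3), was -0.0279 ± 0.0745 at a depth of at least 50, -0.00380 ± 0.0999 at 100 to 500 and -0.335 without clusters low in C coverage. The difference in edited bases per edited read, 0.204 ± 0.0438, was 0.365 and 0.310 at these depths and 0.127 ± 0.126 without clusters low in C coverage. These settings were also chosen after seeing the data. Leaving out 1 replicate at a time, where loci need to be found in both of the others, gave 15.4% to 23.6% for the share of CCT loci found in all replicates, against 8.06%, as fewer replicates have to agree. The other values from leaving out a replicate ranged from 22.5 to 34.0 clusters, from 0.639% to 0.709% and from -1.10 to -0.93 percentage points. The pooled edit fraction of CCT4 was 1.05% at a minimum score of 0.99 in place of 0.707%. In replicate 3 that limit left out the exon segment 0 cluster, with a score of 0.965, 11 edited bases and 3093 covered C bases. Clusters of replicates 1 and 2 were left out as well. The score is itself computed from the edit fraction, and the part of each cluster in the rise was not tested. The exact test called 0 CCT loci under every form that had a CCT locus to test, with 1 CCT locus at an unadjusted p under 0.05 when edited bases replaced edited reads. With identical cluster borders no CCT locus was left to test. The samples form a single group, so no pairing of samples between groups was possible. CCT and all clusters were compared within each replicate, without a test. Depth limits these values where few edited reads, 1 to 4 in the clusters above 3%, set the edit fraction.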
